A study of Mus musculus with 2 samples.

Results

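The proteasome is the cell's main protease for proteins tagged with ubiquitin, and the genes described here encode its constitutive subunits and the proteins that help to build it. There were 43 of them among 52550 gene identifiers in the count tables, taken from a fixed list of gene symbols after the identifiers had been matched to mouse genome build mm10 (GRCm38), and all 43 were found and measured. The list held 7 genes of the alpha ring, 7 of the beta ring, 6 of the ATPase base, 4 of the non-ATPase base, 8 of the lid, 3 base chaperones, 5 core assembly factors and 3 activators or inhibitors. The cells were RAW264.7, a mouse macrophage line transformed with Abelson murine leukaemia virus, left untreated, and each culture method, 2D or 3D, was represented by 1 library of polyadenylated RNA. The labels do not describe the 3D culture further. The libraries are called 2D and 3D below.

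A proteasome consists of a barrel, the core particle, capped by a regulatory particle. The outer alpha rings of the barrel form its gate, and the inner beta rings carry the proteolytic sites. In the regulatory particle the ATPases of the base unfold the substrate, ubiquitin receptors of the base hold it, and the lid contains the deubiquitinase that removes the ubiquitin chain. Dedicated chaperones assemble the rings and the base and then leave. The subunits of a ring are present in equal numbers in the finished particle, and many proteasome genes are known to be induced together by the transcription factor Nfe2l1 when proteolysis is insufficient. Macrophages also carry inducible catalytic subunits that replace the constitutive ones in the immunoproteasome, which favours peptides for antigen presentation.

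The counts summed to 14371084 in 2D and 16652503 in 3D. Because each culture method had a single library, differences could not be checked against replicates, and p-values are not given. Intervals beside ratios are exact 95% intervals of counting error only, and the reads carry no molecular identifiers and need not come from independent molecules, which can make the true counting error larger than shown. Expression is given as counts per 1000000 scaled with TMM factors (CPM), and the ratio is the CPM of the 3D library over that of the 2D library. Genes were counted as higher or lower where this ratio was at least 2-fold. Where intervals of different genes are said not to overlap, this concerns counting error only. How often intervals of other genes overlap was not computed. Markers of the macrophage lineage summed to 55418 counts in 2D and 127674 in 3D, and 7 of 8 were measured, Mrc1 being the exception with 0 and 2 counts. Hepatocyte markers summed to 10 and 311 counts, of which Alb held 8 and 232, fibroblast markers to 20 and 17, and all 4 T and B cell markers were at 0 in both libraries. The part of other cells in the values below was not tested, and in bulk RNA fewer cells of a type cannot be told apart from less RNA per cell.

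Most proteasome genes were higher in 3D, and the size of the difference varied with the module of the particle. Summed over the 43 genes, the level went from 4748 CPM in 2D to 8219 CPM in 3D. As a share of all counts the 43 genes held 0.584% in 2D (0.580% to 0.588%, 95% Wilson limits) and 0.668% of those in 3D (0.664% to 0.672%). The ratio was above 1 for 37 genes and below 1 for 6, namely Psma3, Psma4, Psmc6, Psmd14, Psmg2 and Psme4. Of all 11673 measured genes, 6045 were above 1 and 5628 below. Of the 43 genes, 15 were at least 2-fold higher, or 34.9%, against 18.7% of all 11673 measured genes. At least 2-fold lower was 1 gene, the ATPase Psmc6, or 2.33%, against 20.8% of all measured genes. The counting interval lay wholly above 1 for 34 genes, or 79.1%, against 43.3% of all measured genes, and wholly below 1 for 4, or 9.30%, against 39.9%. The median log2 ratio was 0.63 over the 43 genes and 0.05 over all measured genes. The proteasome genes also lay closer together, with an SD of the log2 ratio of 0.65 against 1.25 over all measured genes and 1.13 over measured protein-coding genes. They were also better expressed, with a median of 140 CPM against 35.2 CPM for measured protein-coding genes. The part of expression level in the smaller SD was not tested.

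**Figure D1:**
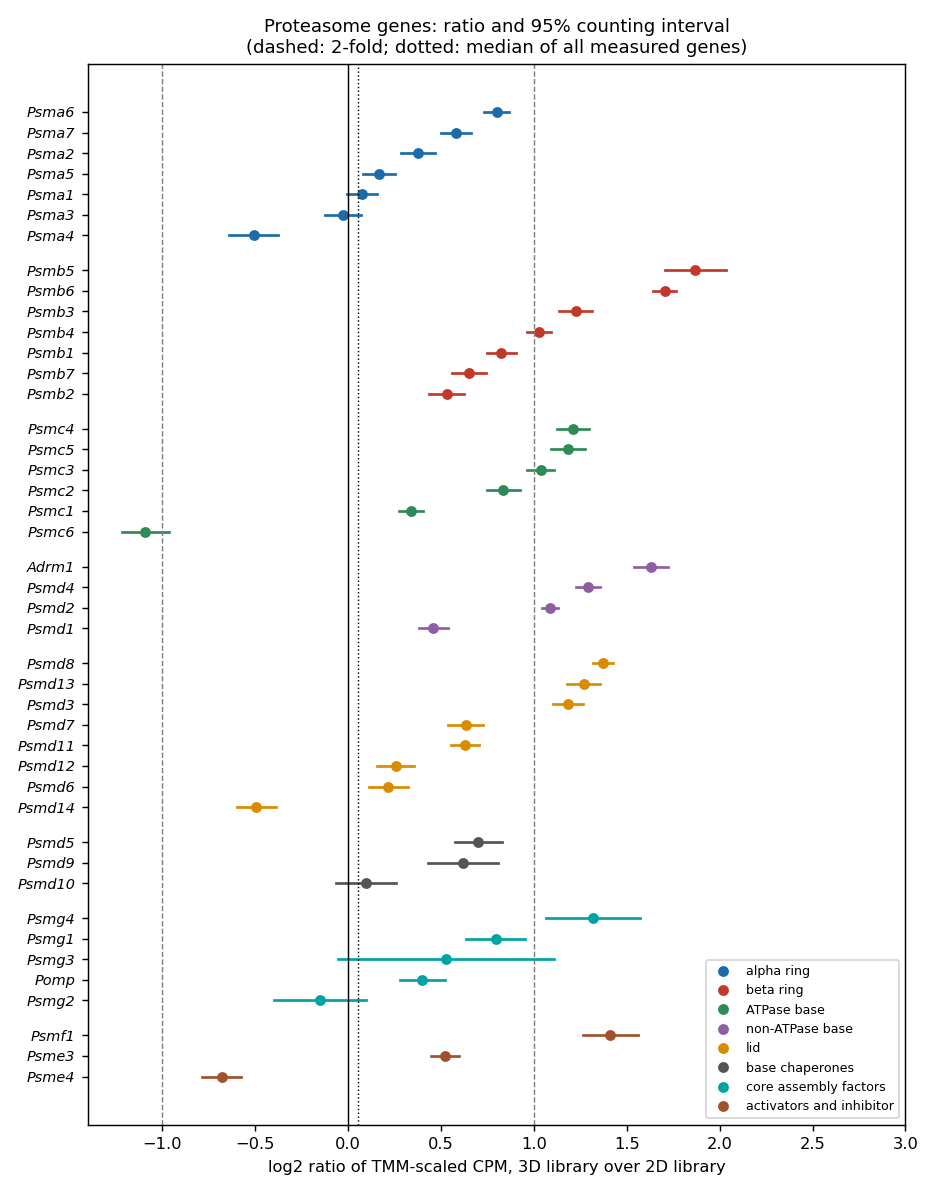
Log2 ratio of TMM-scaled CPM, 3D library over 2D library, for each of the 43 genes, grouped by module; points are single ratios, bars are exact 95% counting intervals, dashed lines mark 2-fold and the dotted line marks the median of all measured genes. The beta ring and the non-ATPase base lie wholly to the right of 0, with Psmb5 farthest right, and the ATPase Psmc6 is the only gene left of the lower 2-fold line.

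The alpha ring, which gates the barrel, was the module with the smallest difference. None of its 7 genes reached 2-fold, against 18.7% of all measured genes higher and 20.8% lower. Its median log2 ratio was 0.17. Psma6 was the highest of the ring by ratio, with 3130 counts (177 CPM) in 2D and 4169 counts (308 CPM) in 3D, a ratio of 1.74 (1.66 to 1.82). Psma4 was the lowest, with 1356 counts (76.7 CPM) and 729 counts (53.9 CPM), which was 1.42-fold lower in 3D (1.30 to 1.56). Between them stood Psma7, which went from 137 to 204 CPM, Psma2 with a ratio of 1.30 and Psma5 with 1.12. Psma1, at 1.05 (0.994 to 1.11), and Psma3, at 0.980 (0.917 to 1.05), could not be separated from a ratio of 1 by counting error alone.

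The beta ring, which holds the active sites, was higher throughout: all 7 genes had an interval above 1, against 43.3% of all measured genes. Of the 7, 4 reached 2-fold, or 57.1%, against 18.7%, and the median log2 ratio was 1.03. The 3 catalytic subunits differed among themselves. Psmb5, the chymotrypsin-like subunit and the usual target of proteasome inhibitor drugs, had 424 counts (24.0 CPM) in 2D and 1184 counts (87.5 CPM) in 3D. Its ratio of 3.65 (3.26 to 4.09) was the highest of all 43 genes, counted without the near-identical copies described below, and stood at percentile 96.9 of all measured genes. Psmb6, the caspase-like subunit, had 3023 counts (171 CPM) and 7530 counts (556 CPM), a ratio of 3.26 (3.12 to 3.40). Psmb7, the trypsin-like subunit, was nearer to its 2D level, with 1714 counts (96.9 CPM) and 2059 counts (152 CPM), a ratio of 1.57 (1.47 to 1.67). The intervals of Psmb5 and Psmb6 overlapped each other, and neither overlapped that of Psmb7. This order did not hold after the adjustment for composition described below. The adjusted log2 ratios were 0.50 for Psmb5, 0.52 for Psmb6 and 1.18 for Psmb7. With the transcript that has the longest coding sequence they were 0.82, 0.16 and 0.19. The noncatalytic subunits ran from Psmb2, at 1.44, and Psmb1, at 1.77, to Psmb4, at 2.04 (1.95 to 2.13), and Psmb3, at 2.34 (2.20 to 2.49). Psmb4 went from 185 to 378 CPM and Psmb3 from 89.6 to 209 CPM, so that Psmb4 only just passed 2-fold and its counting interval reached below it. Psmb2 and Psmb4 are among the genes often chosen as references for expression studies. Psmb7 shares 405 exon bases with Nek6 on the opposite strand, and the labels do not say whether strand was used in counting.

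The value of Psmb5 rests on how reads were assigned, because the genome holds an almost identical annotated copy. The gene itself lies at chr14:54614119-54618022 on the minus strand, and the copy, Gm3375, lies at chr7:3181093-3181888 on the plus strand. The copy matched the Psmb5 coding sequence over 793 aligned columns with 8 mismatches and 1 gap base, an identity of 98.9%, and the longest run without a difference was 194 bases. The stretch of 90 coding bases with the most mismatches, bases 376 to 465 counted from the start codon of Psmb5, is shown from the mm10 annotation to make plain how little separates the copies; the 3 mismatched bases are in capitals.
Psmb5: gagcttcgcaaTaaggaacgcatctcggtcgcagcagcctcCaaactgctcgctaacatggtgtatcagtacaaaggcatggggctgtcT
Gm3375: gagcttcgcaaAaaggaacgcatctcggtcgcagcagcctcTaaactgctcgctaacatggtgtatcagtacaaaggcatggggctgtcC
The annotated copies of Psmb5, among them Gm3375, held 819 counts in 2D and 1672 in 3D, which was 65.9% and 58.5% of the counts of gene and copies together. Summed with its copies, Psmb5 had 1243 and 2856 counts and a ratio of 3.00 (2.81 to 3.21), which was below the 3.26 of Psmb6 and the 3.10 of Adrm1 with its own copy. Psmb5 was thus higher in 3D under both ways of counting, whereas its level depends on which reads are given to the gene.

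Near-identical annotated copies were found for 15 of the 43 genes, at 90% identity or more over at least 200 bases of coding sequence, and they held more than a few percent of the counts for 4. Copies of Psma3 held 32.3% of the summed counts in 2D and 35.1% in 3D. The largest part was in Gm13835 at chr6:31141979-31142663 on the minus strand, which matched 662 bases of the Psma3 coding sequence with 0 mismatches. With the copies added the ratio of Psma3 was 1.02 (0.968 to 1.08) in place of 0.980, so that its interval held 1 either way. Copies of Psma5 held 10.9% and 12.9%, and copies of Psma4 5.90% and 4.46%, with ratios of 1.15 and 0.692 when summed.

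**Figure D2:**
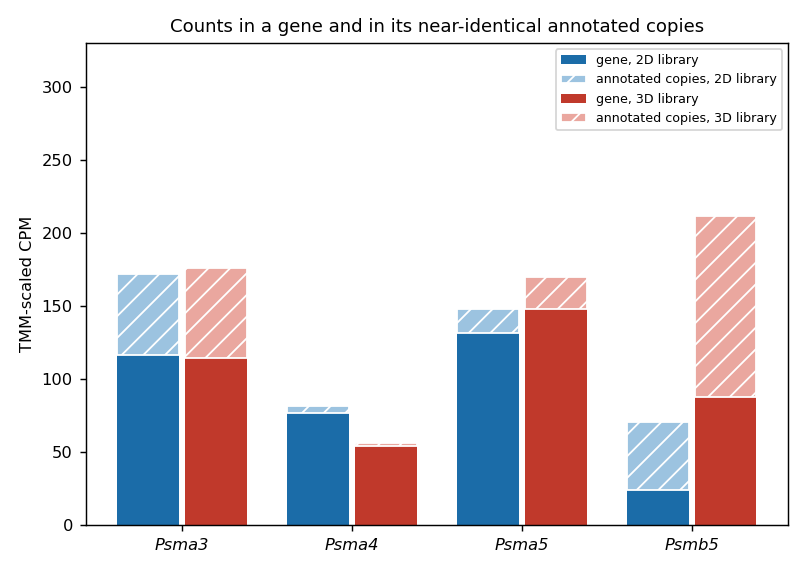
TMM-scaled CPM of Psma3, Psma4, Psma5 and Psmb5 in 2D and 3D; the solid part of each bar is the gene and the hatched part its near-identical annotated copies. The hatched part is larger than the solid part for Psmb5 in both libraries, and the whole bar of Psmb5 is higher in 3D.

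The ATPase base, the ring that unfolds substrates, had the widest range of log2 ratios of any module. Of its 6 genes, 3 were at least 2-fold higher, or 50%, against 18.7% of all measured genes. At least 2-fold lower was 1, or 16.7%, against 20.8%, and the median log2 ratio was 0.94. Psmc4 had 1728 counts (97.7 CPM) in 2D and 3061 counts (226 CPM) in 3D, a ratio of 2.32 (2.18 to 2.46). Psmc5 went from 85.6 to 194 CPM, a ratio of 2.27 (2.13 to 2.42), and Psmc3 from 134 to 275 CPM, a ratio of 2.05 (1.95 to 2.16). Psmc2 stood at 1.78 and Psmc1 at 1.26. Psmc6, a neighbour of these proteins in the same hexamer, was on the other side of 1. It had 1959 counts (111 CPM) in 2D and 703 counts (52.0 CPM) in 3D, which was 2.13-fold lower (1.96 to 2.33) and percentile 18.9 of all measured genes. The 5 other ATPases and Psmc6 did not overlap in their counting intervals. The adjustment for composition described below put Psmc6 within the range of the others, with a log2 ratio of -0.03. Psmc1 was then at -0.51, Psmc3 at -0.20, Psmc5 at 0.10, Psmc4 at 0.21 and Psmc2 at 1.41. With the transcript that has the longest coding sequence Psmc6 was at 0.15, between -0.32 for Psmc1 and 0.44 for Psmc2.

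The non-ATPase base holds the scaffolds Psmd1 and Psmd2 and the ubiquitin receptors Psmd4 and Adrm1, and its median log2 ratio of 1.19 was the highest of the 8 modules. Adrm1, the receptor that also docks the deubiquitinase Uchl5, had 1359 counts (76.8 CPM) in 2D and 3215 counts (238 CPM) in 3D, a ratio of 3.09 (2.90 to 3.30). Psmd4 went from 175 to 429 CPM, a ratio of 2.45 (2.34 to 2.56). Psmd2 held the most counts of all 43 genes in both libraries, 6398 and 10394, with a ratio of 2.12 (2.06 to 2.19). Psmd1, the other scaffold, was at 1.37 (1.30 to 1.45). The partner of Adrm1 went the opposite way: Uchl5 had 1480 and 570 counts and was 1.99-fold lower (1.80 to 2.19). After the adjustment for composition described below, the log2 ratios were 0.63 for Adrm1 and -0.16 for Uchl5.

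In the lid, 3 of 8 genes were at least 2-fold higher, or 37.5%, against 18.7% of all measured genes. None was 2-fold lower, against 20.8%, and the median log2 ratio was 0.63. Psmd8 had 4146 counts (234 CPM) in 2D and 8219 counts (607 CPM) in 3D, a ratio of 2.59 (2.50 to 2.69). Psmd13 went from 88.9 to 214 CPM, a ratio of 2.41 (2.26 to 2.56), and Psmd3 from 108 to 245 CPM, a ratio of 2.27 (2.15 to 2.40). Psmd7, Psmd11, Psmd12 and Psmd6 lay between 1.16 and 1.55. Psmd14, the zinc-dependent deubiquitinase and the only enzyme of the lid, was its lowest gene. It had 2072 counts (117 CPM) and 1125 counts (83.1 CPM), which was 1.41-fold lower in 3D (1.31 to 1.52). Psmd7, the partner with which Psmd14 forms a dimer, stood at 1.55 (1.45 to 1.65), and the intervals of the partners did not overlap. Adjusted for composition as described below, the log2 ratios were -0.02 for Psmd7 and -0.25 for Psmd14. With the transcript that has the longest coding sequence they were 0.13 and -0.17.

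Of 8 assembly factors, 1 reached 2-fold, or 12.5%, against 18.7% of all measured genes. Their median log2 ratio of 0.57 was below the 0.94 of the regulatory particle and close to the 0.62 of the core particle. The core value pools the alpha ring (0.17) with the beta ring (1.03). This order was not kept after the adjustment for composition below, with 0.35 for the assembly factors, 0.16 for the regulatory particle and 0.27 for the core particle. With the transcript that has the longest coding sequence these were 0.32, 0.14 and 0.14. Among the chaperones that build the ATPase ring, Psmd5 had 923 and 1148 counts and a ratio of 1.63 (1.49 to 1.77), Psmd9 stood at 1.54, and Psmd10, also known as gankyrin, had 693 and 567 counts and a ratio of 1.07 (0.955 to 1.20). For the factors that build the alpha and beta rings, the spread was wider. Psmg4 had 202 counts (11.4 CPM) in 2D and 385 counts (28.5 CPM) in 3D, a ratio of 2.49 (2.10 to 2.97). Its partner Psmg3 was the least counted of the 43 genes, with 50 and 55 counts, and its ratio of 1.44 (0.962 to 2.15) was too imprecise to place it on either side of 1. Psmg1 and Psmg2 form a dimer that seeds the alpha ring. Psmg1 had a ratio of 1.73 (1.55 to 1.94), whereas Psmg2 had 338 and 233 counts and was 1.11-fold lower, with an interval that held 1 (0.937 to 1.32). Pomp, which guides the assembly of the beta ring, was at 1.32 (1.21 to 1.43).

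The remaining 3 genes encode proteins that bind the ends of the barrel or restrain it. Psmf1, named as an inhibitor of the proteasome, had 565 counts (31.9 CPM) in 2D and 1150 counts (85.0 CPM) in 3D, a ratio of 2.66 (2.40 to 2.95). Psme3, the nuclear activator that acts without ubiquitin, stood at 1.44 (1.36 to 1.51). Psme4, a large activator linked to histone breakdown, had 2314 counts (131 CPM) and 1104 counts (81.6 CPM) and was 1.60-fold lower (1.49 to 1.72). Each of the 3 intervals stood apart from the others. Adjusted for composition as described below, the log2 ratios were -0.14 for Psme3, -0.13 for Psme4 and 1.44 for Psmf1. With the transcript that has the longest coding sequence they were 0.06, 0.06 and 0.53.

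Levels were compared between genes per length, as CPM per kb of annotated exon. Psma6 had the highest level in 2D, at 143 CPM per kb, and Psmb6 in 3D, at 297 CPM per kb. By the length of the transcript with the longest coding sequence Psmb6 was highest in both, at 214 and 697 CPM per kb. Over the subunits of core and regulatory particle, the highest and lowest level were 8.32-fold apart in 2D and 20.0-fold apart in 3D. With that length in place of all exons, the range was 8.03-fold and 30.0-fold, so that it was wider in 3D under either length. By all exons, the ends were different genes in each library: Adrm1 (17.2 CPM per kb) and Psma6 (143) in 2D, and Psmc6 (14.9) and Psmb6 (297) in 3D. Psmc6 had stood at 31.7 in 2D, and Psmb6 at 91.3. By the other length the lowest subunit in 2D was Psmb5, at 26.7, counted without its copies. The median level of these subunits was 40.2 CPM per kb in 2D and 65.0 in 3D, and that of the 8 assembly factors was 11.5 and 13.8. Levels per length of subunits that occur in equal numbers in the particle were thus unequal in both libraries. These levels depend on the length used and on reads assigned to copies, and they may depend on base composition. Whether the numbers of transcripts were unequal was not tested.

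**Figure D3:**
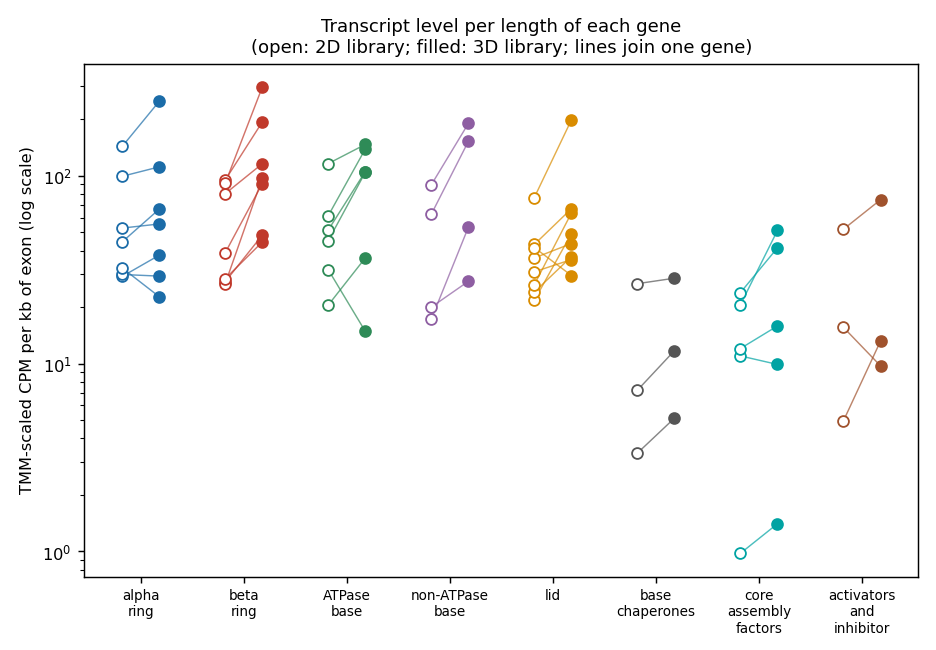
Level of each gene in TMM-scaled CPM per kb of exon, on a log axis, by module; open points are the 2D library, filled points the 3D library, and lines join the values of a gene. Most lines slope upward, from 91.3 to 297 for Psmb6, whereas that of Psmc6 slopes downward from 31.7 to 14.9.

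The scaling of the libraries set how many genes passed 2-fold but not their place among all genes. Under scaling to total counts, which moved the log2 ratio of each gene by -0.60 against TMM, 3 of the 43 genes were at least 2-fold higher (Psmb5, Psmb6 and Adrm1; 5.59% of all genes) and 4 at least 2-fold lower (36.5% of all genes). Higher genes then made up 42.9% of the calls, against 93.8% with TMM. Scaling to 12 reference genes, whose median log2 ratio was 0.28, left 7 higher (Psmb5, Psmb6, Psmd4, Adrm1, Psmd8, Psmg4 and Psmf1; 11.2% of all genes) and 1 lower (27% of all genes). Relative to the median of all genes, the median of the 43 was 0.58 with TMM and lay between 0.58 and 0.60 under these scalings, with 37 genes above the median of all genes each time. The order of the modules does not depend on the scaling, and the directions of individual genes near 1 do: 24 of 43 ratios were above 1 under total counts, and 32 were when reference genes set the scale.

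The ratios of the proteasome genes ran along the base composition of their transcripts. Across the 43 genes the log2 ratio had a Pearson r of 0.83 and a Spearman rho of 0.83 with the GC content of the coding sequence. Over 10538 measured protein-coding genes, the correlation with the GC content of the transcript with the longest coding sequence was 0.59 (rho 0.62), and for the 43 genes it was 0.83 (rho 0.83) with that measure. With the GC content of the longest transcript, the planned measure, it was 0.69 (rho 0.69) for the 43 genes. For the protein-coding genes it was then 0.58 (rho 0.62), so that the gap between them was smaller. These values share the same pair of libraries and are descriptions across genes, which are not independent replicates. At the high end of the ratios, the coding sequence was 59.0% G and C for Adrm1 and 57.8% for Psmb5, and for the genes with the lowest pair of ratios it was 41.8% for Psmc6 and 42.6% for Psme4. The order was not strict: Psmd9, at 58.9%, had a ratio of 1.54, and Psma6, at 44.4%, one of 1.74. To show what this contrast looks like, the first 90-base coding stretch with a GC content nearest to that of the whole coding sequence is given for Adrm1 (from base 245) and Psmc6 (from base 40), with G and C in capitals, from the mm10 annotation.
Adrm1: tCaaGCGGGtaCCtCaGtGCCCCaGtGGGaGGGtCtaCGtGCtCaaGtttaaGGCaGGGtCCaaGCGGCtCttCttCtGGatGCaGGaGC
Psmc6: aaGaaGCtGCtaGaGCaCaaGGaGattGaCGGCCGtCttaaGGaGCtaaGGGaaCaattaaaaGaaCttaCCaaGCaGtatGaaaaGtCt
Adrm1 lies at chr2:180171485-180176286 on the plus strand, and Psmc6 at chr14:45329788-45349705 on the plus strand. G and C made up 58.9% of the stretch from Adrm1 and 42.2% of that from Psmc6.

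Set beside genes of like GC content, most proteasome genes were on the high side. The protein-coding genes were divided into 10 bins of equal size by the GC content of the transcript with the longest coding sequence. Of the 43 genes, 42 lay above the median log2 ratio of their bin, the exception being the assembly factor Psmg3. The bins match GC content only. The 43 genes also had a higher median level than measured protein-coding genes (140 against 35.2 CPM) and a shorter median exon length (2893 against 4570.5 bases). In the lowest of these bins the median of all genes was -1.32, and the 3 proteasome genes there, Psma3, Psma2 and Psmc6, had a median of -0.03. Psmc6, although 2-fold lower in 3D, stood above the median of its bin, with -1.09 on the log2 scale. In the highest bin the median of all genes was 0.94, and Adrm1 stood at 1.63. With bins by the GC content of the longest transcript, Psma7 (0.58 against 0.80), Psma4 (-0.509 against -0.501) and Psme4 (-0.68 against -0.50) lay below their bin median. After the adjustment below for GC content, exon length and mean level, 29 of the 43 genes lay above 0, against 5975 of 11666 genes. That number was 33 with the transcript that has the longest coding sequence, against 5489 of 10543 genes.

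**Figure D4:**
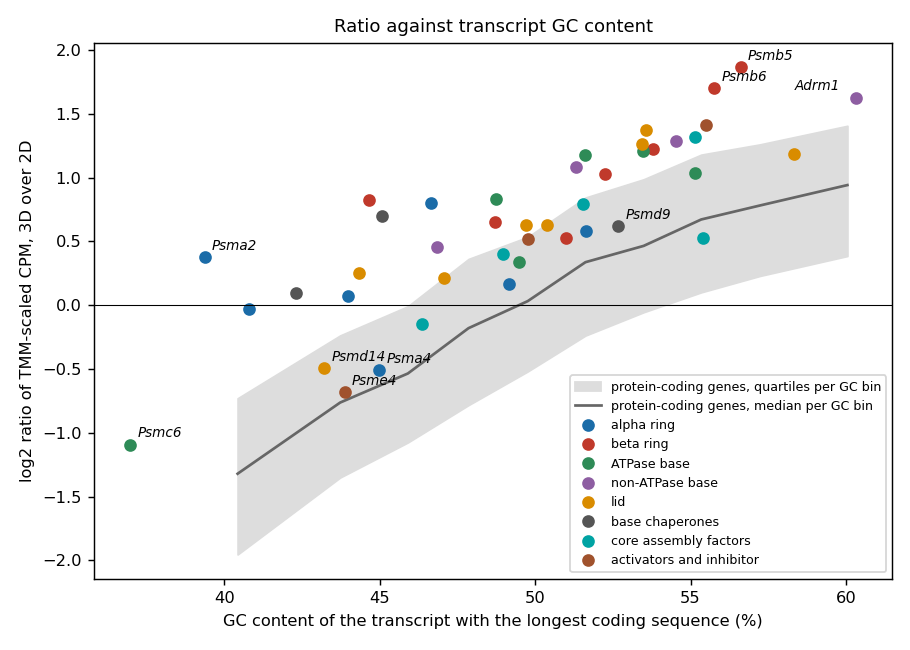
Log2 ratio of each gene, 3D over 2D, against the GC content in percent of its transcript with the longest coding sequence; coloured points are the 43 genes by module, and the line and grey band are the median and quartiles of protein-coding genes per GC bin, 10 in all. The points follow the slope of the line, and 42 of 43 lie above the median of their bin, with Adrm1, Psmb5 and Psmb6 at the upper right and Psmc6 at the lower left.

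An adjustment for GC content, exon length and mean level, fitted over all measured genes, took up 45.0% of the variance of the log2 ratio. The medians of the 8 modules, from 0.17 to 1.19 before, ran from -0.13 to 0.64 after it. After it, 6 of the 43 genes were at least 2-fold higher, or 14.0%, against 10.5% of all genes, and 0 were lower, against 9.75%. Only 1 of the 6, Psmf1, was among the 15 genes that were 2-fold higher before the adjustment, and the other 5 were Psma2, Psmb7, Psmc2, Psmd11 and Psmd5. The median of the 43 genes was 0.18. By module the adjusted median log2 ratio was 0.13 in the alpha ring, 0.50 in the beta ring, 0.04 in the ATPase base, 0.33 in the non-ATPase base and 0.11 in the lid. For the base chaperones it was 0.64, for the core assembly factors 0.16 and for the activators and inhibitor -0.13. The longest annotated transcript of Psmb7, Psmc2, Psmd11 and Psmf1 has a lower GC content than the transcript with the longest coding sequence. With the latter used for the adjustment, 2 genes were at least 2-fold higher (Psma2 and Psmd5), against 7.88% of the 10543 genes with such a transcript, and 0 were lower, against 8.59% of those genes. The median was 0.16, with 33 of 43 genes above 0, against 5489 of those 10543 genes. The medians of 7 modules then lay between 0.06 and 0.22, and that of the base chaperones was 0.77. An adjustment of this kind also removes any difference between the cultures that runs along these properties, and with 1 library each the culture method, the library and the composition of transcripts cannot be told apart.

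**Figure D5:**
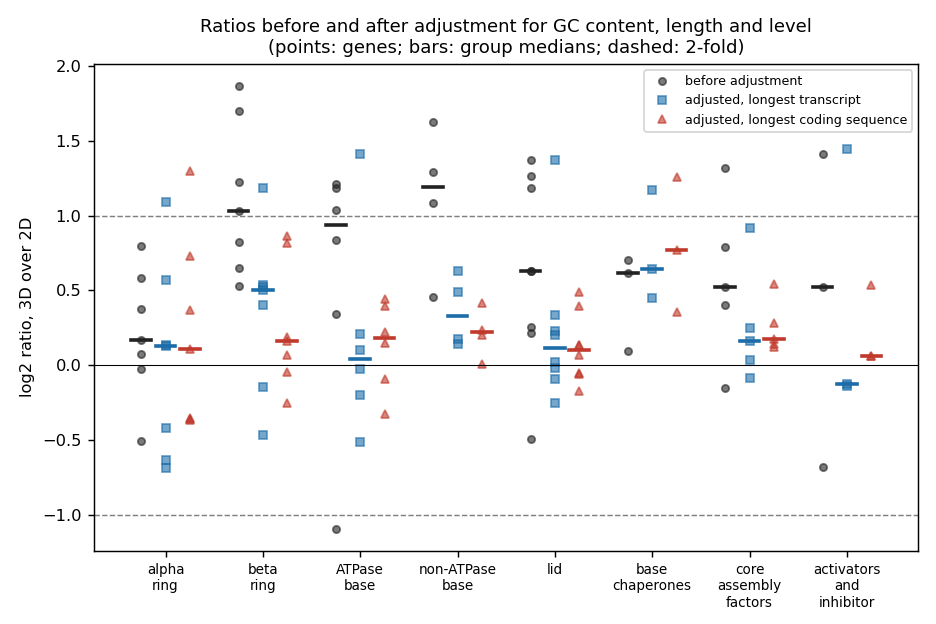
Log2 ratio, 3D over 2D, of each gene by module before adjustment (circles) and after adjustment for GC content, length and mean level, with the longest transcript (squares) or with the transcript that has the longest coding sequence (triangles); short bars are medians and dashed lines mark 2-fold. The medians of the beta ring and of the non-ATPase base come down from 1.03 and 1.19 to 0.16 and 0.22 in the last of these, while that of the base chaperones stays at 0.62 or above.

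Promoters were read for the motif of the antioxidant response element, to which Nfe2l1 and Nfe2l2 bind together with small Maf proteins, because that element is known to control proteasome genes. RefSeq promoters on the GRCm38 build, from 250 bases before to 50 bases after the start of transcription, were matched for 36 of the 43 genes. Psmb1, Psmb2, Psmb7, Psmc3, Psmd3, Psmd7 and Psmg2 were not matched. The core TGACNNNGC on either strand was present in 7 of 36 genes, or 19.4%, and in 14.0% of all 27025 genes with a promoter of that length. The 7 genes were Psmb5, Psmb6, Psmc6, Adrm1, Psmd12, Psmd9 and Psme4, which include the genes with the 3 highest ratios and those with the lowest pair of ratios. Those of the 3 highest genes and of the lowest are shown with the core in capitals. The TGAC letters are shared with the sites of AP-1 and CREB proteins, and a match of letters does not show that a factor binds.
Psmb5: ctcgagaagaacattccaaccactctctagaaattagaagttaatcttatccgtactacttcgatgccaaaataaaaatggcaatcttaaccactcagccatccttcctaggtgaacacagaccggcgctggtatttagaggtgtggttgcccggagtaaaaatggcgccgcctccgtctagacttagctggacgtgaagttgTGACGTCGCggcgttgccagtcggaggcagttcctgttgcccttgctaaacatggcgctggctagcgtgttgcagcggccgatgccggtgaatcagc
Psmb6: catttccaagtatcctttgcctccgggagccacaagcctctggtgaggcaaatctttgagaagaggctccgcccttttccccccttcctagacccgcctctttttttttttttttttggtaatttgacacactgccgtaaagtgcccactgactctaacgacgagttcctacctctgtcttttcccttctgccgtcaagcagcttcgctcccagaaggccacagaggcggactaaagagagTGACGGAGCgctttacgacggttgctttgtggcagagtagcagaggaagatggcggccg
Adrm1: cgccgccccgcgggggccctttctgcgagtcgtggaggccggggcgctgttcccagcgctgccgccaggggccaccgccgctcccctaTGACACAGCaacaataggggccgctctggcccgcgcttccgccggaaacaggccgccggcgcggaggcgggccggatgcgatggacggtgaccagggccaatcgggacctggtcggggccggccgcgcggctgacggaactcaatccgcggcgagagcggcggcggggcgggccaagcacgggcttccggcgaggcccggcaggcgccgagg
Psmc6: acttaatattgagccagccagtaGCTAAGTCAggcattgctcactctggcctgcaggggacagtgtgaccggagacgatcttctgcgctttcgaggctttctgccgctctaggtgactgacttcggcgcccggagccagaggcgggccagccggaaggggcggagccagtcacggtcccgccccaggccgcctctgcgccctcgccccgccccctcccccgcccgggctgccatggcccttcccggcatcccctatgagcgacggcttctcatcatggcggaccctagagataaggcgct
They lie at chr14:54617946-54618245 on the minus strand for Psmb5, chr11:70525107-70525406 on the plus strand for Psmb6, chr2:180171338-180171637 on the plus strand for Adrm1 and chr14:45329574-45329873 on the plus strand for Psmc6. In Psmc6 the core is on the opposite strand, so that its reverse complement is in capitals. The core began 9 bases before the start in Psmb6, 47 in Psmb5 and 162 in Adrm1. The median log2 ratio was 0.62 for the 7 genes with the core and 0.63 for the 29 without it. Of the other motifs searched on both strands, CCAAT, the box bound by the factor NF-Y, was in 13 of 36 genes, or 36.1%, against 41.1% of all genes. The heat shock element core GAANNTTC was in 2 of 36, Psmb5 and Psmf1, or 5.56%, against 9.04% of all genes.

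Genes that work with the constitutive proteasome were compared in the same way. Of the 7 immunoproteasome and tissue-specific subunits and activators, 6 were measured, 3 were at least 2-fold higher, against 18.7% of all measured genes, and 0 were lower, against 20.8%. The median log2 ratio of the 6 was 0.92, and 0.36 after the adjustment for composition. Psmb8 had 54 and 113 counts, a ratio of 2.73 (1.96 to 3.86), Psmb10 156 and 247 counts, a ratio of 2.07 (1.69 to 2.55), and Psmb9 28 and 37 counts, a ratio of 1.73 (1.03 to 2.93). The activator subunits Psme1 and Psme2 stood at 2.58 (2.34 to 2.84) and 1.68 (1.47 to 1.92). The inducible subunits remained far below their constitutive counterparts in level. In CPM per kb of exon, Psmb5 was 29.5-fold above Psmb8 in 2D and 39.4-fold in 3D, or 86.6-fold and 95.1-fold if all reads of its annotated copies were given to Psmb5. Psmb6 was 211-fold and 398-fold above Psmb9. Psmb7 was 5.48-fold and 4.15-fold above Psmb10. With the length of the transcript with the longest coding sequence these became 14.2-fold and 19.0-fold, 183-fold and 345-fold, and 12.4-fold and 9.42-fold. The constitutive subunit was the more abundant of each pair in both libraries under either length.

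Upstream of the particle, Uba1, the main ubiquitin-activating enzyme, had 6329 and 15525 counts and a ratio of 3.21 (3.11 to 3.30). Of 12 measured shuttle receptors and partners of the segregase Vcp, 3 were at least 2-fold higher, or 25%, against 18.7% of all measured genes, and 0 were lower, against 20.8%. Vcp stood at 2.23 (2.16 to 2.30), Faf1 at 2.12 (1.98 to 2.27) and Nploc4 at 2.00 (1.89 to 2.13). None of 11 measured proteins that associate with the proteasome reached 2-fold in either direction, against 18.7% of all measured genes higher and 20.8% lower. After the adjustment for composition 3 of the 11 were at least 2-fold higher, namely Txnl1, Zfand5 and Usp14. That was 27.3%, against 10.5% of all genes, and 0 were lower, against 9.75%. With the transcript that has the longest coding sequence 36.4% were higher, against 7.88%. Of the 12 shuttle receptors and partners, 1 was higher after the first adjustment, or 8.33%.

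Transcripts of Nfe2l1 and Nfe2l2, the transcription factors best known for proteasome genes, were not higher in 3D. Nfe2l1 had 3857 counts (218 CPM) in 2D and 2240 counts (166 CPM) in 3D, a ratio of 0.759 (0.720 to 0.800). Nfe2l2 had 2516 and 1696 counts and a ratio of 0.881 (0.828 to 0.937). After the adjustment for composition the log2 ratios were -1.30 for Nfe2l1 and -0.32 for Nfe2l2. Both proteins are controlled mainly after translation, so the level of their transcripts is no measure of their activity. Of the 7 measured genes of that list, which also held small Maf partners, Hsf1 and the processing enzyme Ngly1, 1 was at least 2-fold higher, against 18.7% of all measured genes; it was Maff, with 191 and 327 counts and a ratio of 2.24 (1.87 to 2.69). The median log2 ratio of the list was -0.18, and -0.32 after the adjustment for composition. After it, 2 of the 7 were at least 2-fold lower, or 28.6%, against 9.75% of all genes. At least 2-fold higher was 1, or 14.3%, against 10.5%.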

How the data were processed

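The authors deposited raw counts for each Ensembl gene. Trimmomatic, HISAT2, HTSeq and build mm10 are named in the submitters' processing notes, and a stranded polyA kit in the labels' protocols. Tool versions, the strand option and the handling of multiply matching reads were not given in the sources used here. Of 52550 identifiers, 52403 (99.7%) matched the GENCODE M21 annotation. Counts were scaled with TMM factors of 1.23 (2D) and 0.813 (3D) from edgeR 4.0.16, and 11673 genes whose mean reached 1 CPM were measured. Intervals of ratios were exact (Clopper-Pearson, conditional on the summed counts) and those of shares Wilson, at 95%. A gene at 0 was read against a floor of 3 counts, or 0.170 CPM in 2D and 0.222 CPM in 3D. With 1 library per group no test was made. The adjustment used natural cubic splines with 4 degrees of freedom (patsy 1.0.2). Copies were found with BLAST 2.17.0. The members and gene lists, and the alternatives, were chosen with earlier results of these data known. Genes were named with full values where they were highest or lowest of their module, at least 2-fold different or catalytic; some further members, and Uchl5, were named after their values were seen. The code was tested on simulated counts for the 3D over 2D ratio: the true ratio lay inside the interval for 95.5% of genes, the 2-fold rule found 100% of 3-fold and 60% of exactly 2-fold changes, and it called 0.192% of unchanged genes. With a GC trend added, the unadjusted rule found 88% of 3-fold changes and called 11.0% of unchanged genes, against 100% and 0.200% after adjustment. Exactly 2-fold changes were found for 64% before and 44% after adjustment with the trend, and for 60% and 46% without it. The simulated counts had Poisson error and a smooth trend in GC content only, with no variation between libraries. They therefore check the code and not how far the ratios would repeat. Part of the list of ubiquitin genes is not reported here.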

Additional observations from a re-analysis of the deposited data

How the results depend on the processing

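The counts and medians, the range of levels and the ratios of 26 of the 43 genes were recomputed under other settings; the adjustment with the transcript that has the longest coding sequence, the sums with copies and the level by that transcript's length were chosen after seeing the data. The count of 15 higher genes was 3 under total counts, 7 under reference genes, 6 after the composition adjustment, 2 after that with the transcript of the longest coding sequence, 24 at 1.5-fold and 0 at 4-fold. The count of 1 lower gene was 4 under total counts, 2 at 1.5-fold and 0 at 4-fold, after either adjustment and when the interval bound had to pass 2-fold. Shares of all genes at 1.5-fold, at 4-fold and by the interval bound are not given here. The counts at these settings therefore do not show whether the proteasome genes differed from other genes. The median log2 ratio of 0.63 was 0.034, 0.35, 0.18 and 0.16 under total counts, reference genes and the 2 adjustments. Relative to all genes, the medians of the alpha ring, beta ring, ATPase base, non-ATPase base, lid and activators and inhibitor (0.12, 0.98, 0.88, 1.14, 0.58 and 0.47) were 0.27, 1.13, 1.03, 1.29, 0.73 and 0.62 with no filter on low counts. A mean of at least 5 CPM gave 0.90 for the beta ring and 1.06 for the non-ATPase base, and thinned libraries gave 0.89 for the beta ring. Composition adjustment gave 0.48, 0.016, 0.31 and 0.091 for the beta ring, ATPase base, non-ATPase base and lid, 0.14 for the core assembly factors (0.47 before) and -0.15 for the activators and inhibitor, a reversed sign; the adjustment with the longest coding sequence gave 0.13, 0.15, 0.19, 0.067, 0.14 and 0.029. The sign of the log2 ratio changed for 10 of the 43 genes under the first adjustment and for 12 under the second. Among genes that had been at least 2-fold different these were Psmb4 (-0.14) and Psmc3 (-0.20) under the first, and Psmb4 (-0.044), Psmc3 (-0.090), Psmd3 (-0.053) and Psmc6 (0.15) under the second. Psma3, Psma5, Psma7, Psmb2 and Psmc1 changed sign under both; the cause was not tested. DESeq2 size factors, upper-quartile factors and a pseudocount of 1 CPM moved none of 26 named genes beyond its interval and kept all 15 higher genes. Psmb4 and Psmc3 were no longer 2-fold higher in thinned libraries and among protein-coding genes only, which left 13. No paired analysis was possible because each culture method had 1 library, and for the same reason no library could be left out.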

Other observations

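Among the genes not described above, the activating enzyme Uba6 had 1091 counts in 2D and 482 in 3D, a ratio of 0.577 (0.518 to 0.643), while Uba1 was 3.21-fold higher. After the adjustment for composition the log2 ratios were 0.68 for Uba6 and 0.62 for Uba1, so that this contrast was not seen. The shuttle protein Ddi2, a protease that cleaves Nfe2l1, had 1091 and 472 counts and a ratio of 0.565 (0.506 to 0.630), and Ngly1, which removes the sugars of Nfe2l1, had 208 and 126 counts and a ratio of 0.792 (0.629 to 0.993). The small Maf gene Mafg stood at 0.512 (0.471 to 0.556). After the same adjustment the log2 ratio was -0.55 for Ddi2, 1.09 for Ngly1 and -1.68 for Mafg, so that Ngly1 changed direction. Psma8, known as the alpha subunit of the testis, had 364 and 236 counts in this macrophage line, a ratio of 0.847 with an interval that held 1, and the summed counts of Psmb8, Psmb9 and Psmb10 were 238 and 397. The beta subunit of the thymus, Psmb11, had 0 counts in both libraries, as did Nfe2l3.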
